A study of Mus musculus and Homo sapiens with 8 samples.

Results

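The genes described are 10 histone chaperones outside the ANP32 family, measured as messenger RNA after loss of ANP32B, itself an acidic nuclear histone chaperone. They are NPM1, NPM3, NAP1L1, NAP1L4, SSRP1, SUPT16H, NASP, ASF1A, ASF1B and HIRA. They were chosen by name for what they do, with earlier results of these data known. All 10 were among the 20296 genes listed in the human tables. In the mouse tables, which list 17097 genes, 9 were found with only the first letter in capitals, and SUPT16H was found as Supt16, for which RefSeq gives SUPT16H as a synonym. All 10 passed the filter on low counts in both experiments, and the lowest count of any of them in a library was 353.

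Histone chaperones bind free histones and hand them to DNA or take them off it, so that nucleosomes can be built behind the replication fork, exchanged, and opened and closed during transcription. NPM1 and NPM3 belong to the nucleoplasmin family, and NPM1 is an abundant nucleolar protein and a well-known leukemia gene. NAP1L1 and NAP1L4 carry H2A-H2B dimers between cytoplasm and nucleus, and SSRP1 and SUPT16H form FACT, the complex that loosens and restores nucleosomes in front of and behind polymerases. NASP, ASF1A and ASF1B keep and pass on H3-H4, and HIRA deposits the variant H3.3 outside of replication.

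The mouse libraries came from LSK cells, the lineage-negative, Sca-1-positive and c-Kit-positive fraction of bone marrow, in which blood stem cells and early progenitors are found. All the animals were C57BL/6, either wild type (WT, n = 2 libraries) or Anp32b-KO (KO, n = 2), and neither their age nor the deleted part of the gene is given in the labels. The human libraries came from KU812, an established line from chronic myelogenous leukemia, with either a control hairpin (2 libraries, shNC) or one against ANP32B (2 libraries, shANP32B), and the labels give no hairpin sequence or clone. The columns of the shANP32B tables are headed h8 instead, a name that no source used here explains. Nothing in the labels tells whether the libraries of a group stem from different mice or different cultures. The p-values therefore measure only how far these libraries spread, which may be technical.

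LSK libraries held 10549358 to 15683480 counts each, and KU812 libraries 24416691 to 28209409. Levels are given as CPM, each library's counts scaled to a common total with edgeR's TMM factors. The targeted gene was lower in the libraries labelled as perturbed: ANP32B stood at 250 and 286 CPM in shNC and 40.4 and 38.2 CPM in shANP32B, and Anp32b at 794 and 730 CPM in WT and 201 and 249 CPM in KO. ANP32B passed the test described below (log2 fold change -2.77, edgeR adjusted p = 5.184e-08), while Anp32b, at -1.76 with the smallest p of all LSK genes, did not (adjusted p = 0.148). The gate markers Kit (335 to 399 CPM) and Ly6a, which encodes Sca-1 (37.8 to 60.2 CPM), were present in every LSK library, and the basophil and mast cell genes HDC (1092 to 1256 CPM) and GATA2 (1176 to 1407 CPM) in every KU812 library. Of 7 such genes in KU812 cells CLC fell by 2.69 on the log2 scale and CPA3 rose by 1.06 (edgeR, adjusted p = 5.373e-06 and 9.797e-06), and the other 5 did not pass. The first WT library stood apart: 5 B and plasma cell genes summed to 7715 CPM in it, nearly all Ighm, where the other WT library had 1668 CPM and the KO libraries had 2800 and 3360 CPM. Log2 fold changes of LSK genes are therefore also given without that library.

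In KU812 cells NPM1 and NAP1L1 fell with ANP32B knocked down, and the other 8 chaperones did not pass the test. NPM1 was 1.39-fold and NAP1L1 1.30-fold lower. In LSK cells none of the 10 passed. The test was the quasi-likelihood test of edgeR, with p-values adjusted by Benjamini-Hochberg over every gene tested and a threshold of 0.05. Of all 16529 genes tested in KU812 cells 16.6% passed, 9.06% as lower and 7.53% as higher, so 2 of 10 lower and 0 of 10 higher are near the background. An unadjusted p under 0.05 was reached by 3 of the 10 (NPM1, NAP1L1 and SSRP1) and by 30.5% of all genes. In LSK cells 0% of 14598 genes passed, and 0 of the 10 chaperones had an unadjusted p under 0.05, against 4.50% of all genes. DESeq2 and limma-voom, which called 15 and 2 of all LSK genes, also called 0 of the 10. The median log2 fold change of the 10 was -0.18 in KU812 cells, where that of all genes tested was 0.0041, and -0.077 in LSK cells, where that of all genes tested was -0.0079.

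**Figure D1:**
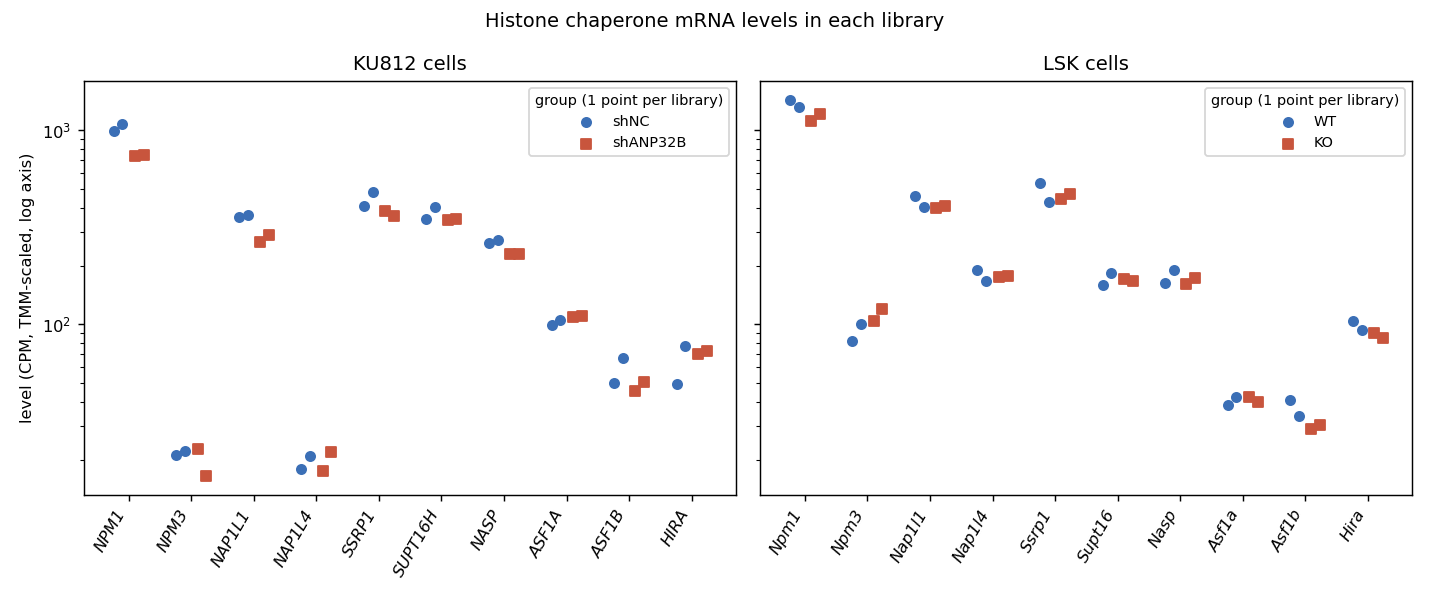
Level of each histone chaperone (vertical axis, CPM with TMM scaling, log axis) in every library of KU812 cells (left; shNC circles, shANP32B squares) and LSK cells (right; WT circles, KO squares). Both shANP32B points of NPM1 and NAP1L1 lie under both shNC points; points of different genes are not corrected for gene length and should be compared only within a gene.

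NPM1 shuttles between nucleolus and cytoplasm and takes part in ribosome assembly as well as in histone binding. In KU812 cells it stood at 989 and 1073 CPM in the shNC libraries and at 735 and 747 CPM in the shANP32B libraries. The shANP32B libraries were close to each other and well below both controls. The log2 fold change of NPM1 was -0.48 (SE 0.092), with a 95% confidence interval from -0.67 to -0.28 (edgeR, adjusted p = 0.00356). It kept its call with each library left out in turn, with values from -0.54 to -0.43. In LSK cells Npm1 stood at 1435 and 1324 CPM in WT and at 1120 and 1215 CPM in KO, again with both perturbed libraries below both controls. The LSK log2 fold change of -0.24 had a confidence interval of -0.62 to 0.14 and did not pass (edgeR, adjusted p = 0.986). Without the first WT library it was -0.18.

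The human tables list 7 NPM1 pseudogenes, processed copies close in sequence to NPM1, and no source used here gives how reads shared with them were counted. The most abundant, NPM1P27, named here after its values were seen, stood at 65.2 and 72.9 CPM in shNC and at 45.5 and 49.9 CPM in shANP32B. Its log2 fold change was -0.53 (edgeR, adjusted p = 0.0127), in the same direction as NPM1. With the counts of all listed NPM1 pseudogenes added to NPM1, an alternative chosen after seeing the data, the log2 fold change of NPM1 was again -0.48. As NPM1P27 was far less abundant than NPM1, this sum could hardly move the value. It does not settle how shared reads were counted. Also listed were NAP1L4P1 and SUPT16HP1, with 206 and 13 counts over all KU812 libraries, and in the mouse Npm3-ps1 with 68. Their counts were not added to their genes.

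NPM3, a shorter nucleoplasmin that binds NPM1, was much less abundant. In KU812 cells it stood at 21.3 and 22.3 CPM in shNC and at 22.9 and 16.6 CPM in shANP32B. The first shANP32B library was above both controls and the second below both, so the groups overlapped (log2 fold change -0.14, confidence interval -0.54 to 0.25, edgeR adjusted p = 0.65). In LSK cells Npm3 had the largest positive value of the 10, at 81.6 and 101 CPM in WT and 104 and 119 CPM in KO. The groups did not overlap, but the second WT library was close to the first KO library. Its log2 fold change was 0.29 with an interval of -0.073 to 0.66, and 0.15 without the first WT library. The ratio of Npm1 to Npm3 counts, which can be set side by side between libraries, was 17.6 and 13.2 in WT and 10.8 and 10.2 in KO. In KU812 cells that of NPM1 to NPM3 was 46.4 and 48.1 in shNC and 32.1 and 45.1 in shANP32B.

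NAP1L1 is the most widely expressed member of the NAP1 family. In KU812 cells it stood at 355 and 365 CPM in shNC and at 265 and 289 CPM in shANP32B, with no overlap between the groups. The log2 fold change of NAP1L1 was -0.38 (SE 0.10), with a confidence interval from -0.60 to -0.16 (edgeR, adjusted p = 0.0215). The call rested on both shANP32B libraries: without the first the log2 fold change was -0.32 (adjusted p = 0.24) and without the second -0.46 (adjusted p = 0.0679). Nap1l1 in LSK cells stood at 458 and 402 CPM in WT and at 397 and 408 CPM in KO. Only the first WT library was high, and without it the log2 fold change of -0.095 was -0.00098.

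NAP1L4, its close relative, showed no shift in KU812 cells, at 17.9 and 20.9 CPM in shNC and 17.5 and 21.9 CPM in shANP32B. Its log2 fold change of 0.022 had an interval of -0.36 to 0.41. Nap1l4 in LSK cells stood at 192 and 168 CPM in WT and 175 and 178 CPM in KO, with both KO libraries between the WT libraries. Its log2 fold change of -0.027 became 0.070 without the first WT library. The ratio of NAP1L1 to NAP1L4 counts in KU812 cells was 19.8 and 17.5 in shNC and 15.2 and 13.2 in shANP32B, and in LSK cells it was 2.39 and 2.40 in WT and 2.27 and 2.30 in KO. In both experiments both perturbed ratios lay below both control ratios, by a smaller margin in LSK cells. These ratios were not tested, and no share over other pairs of genes was computed.

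SSRP1 and SUPT16H are the 2 subunits of FACT. SSRP1 in KU812 cells stood at 405 and 479 CPM in shNC and at 384 and 363 CPM in shANP32B. Both shANP32B libraries were below both controls, the first by little. The log2 fold change of -0.24 had an interval of -0.47 to -0.012 and an unadjusted p of 0.0406 in the edgeR fit over all genes, but did not pass (adjusted p = 0.143). It passed without the first shNC library, at -0.36 (adjusted p = 0.00195), and stood at -0.13 without the second. SUPT16H stood at 347 and 401 CPM in shNC and at 345 and 347 CPM in shANP32B, so only the second shNC library was high. Its log2 fold change was -0.11 with an interval of -0.34 to 0.11.

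In LSK cells the changes of both FACT subunits were small against the spread. Ssrp1 stood at 532 and 425 CPM in WT and at 443 and 469 CPM in KO, and its log2 fold change of -0.071 became 0.099 without the first WT library. Supt16 stood at 160 and 184 CPM in WT and at 172 and 167 CPM in KO, and its log2 fold change of -0.025 became -0.13 without that library. The WT libraries lay on either side of both KO libraries for both subunits. The ratio of Ssrp1 to Supt16 counts ranged from 2.31 to 3.33 in WT, wider than the 2.58 and 2.82 in KO, and that of SSRP1 to SUPT16H in KU812 cells was 1.17 and 1.20 in shNC and 1.11 and 1.05 in shANP32B.

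NASP binds H3 and H4 and protects the soluble pool of these histones from degradation. In KU812 cells it stood at 262 and 274 CPM in shNC and at 230 and 231 CPM in shANP32B. The groups did not overlap and the shANP32B libraries were nearly equal. The log2 fold change of -0.21 had an interval of -0.43 to 0.0031 (edgeR, adjusted p = 0.17). Nasp in LSK cells stood at 162 and 192 CPM in WT and at 161 and 173 CPM in KO, with overlapping groups and a log2 fold change of -0.084, which was -0.20 without the first WT library.

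ASF1A and ASF1B are paralogs that take H3-H4 from the soluble pool to the depositing complexes, and ASF1B is the one tied to proliferating cells. ASF1B in KU812 cells stood at 50.1 and 67.2 CPM in shNC and at 45.1 and 50.3 CPM in shANP32B. The first shNC library and the second shANP32B library were nearly equal, so the groups overlapped. The log2 fold change of -0.30 (edgeR, adjusted p = 0.205) passed at -0.50 without the first shNC library (adjusted p = 0.00459) and was -0.082 without the second. Asf1b had the lowest log2 fold change of the 10 in LSK cells. It stood at 40.6 and 33.7 CPM in WT and at 28.8 and 30.3 CPM in KO, with no overlap. That log2 fold change was -0.33 with an interval of -0.71 to 0.047 (edgeR, adjusted p = 0.986), and -0.19 without the first WT library.

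ASF1A showed no such shift. In KU812 cells it stood at 99.3 and 106 CPM in shNC and at 109 and 110 CPM in shANP32B, slightly above both controls (log2 fold change 0.099, interval -0.14 to 0.34). Asf1a in LSK cells stood at 38.3 and 42.4 CPM in WT and at 42.1 and 39.6 CPM in KO (log2 fold change 0.019, and -0.056 without the first WT library). The ratio of Asf1a to Asf1b counts was 0.944 and 1.26 in WT and 1.46 and 1.31 in KO, and that of ASF1A to ASF1B was 1.98 and 1.57 in shNC and 2.42 and 2.19 in shANP32B. Both perturbed ratios were above both control ratios in each experiment, a description without a test. How often other pairs of genes do the same was not counted.

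The value of HIRA in KU812 cells rested on which control library was used. It stood at 49.0 CPM in the first and 76.9 CPM in the second shNC library, and at 70.5 and 73.0 CPM in shANP32B. The shANP32B libraries lay between the controls. HIRA had a log2 fold change of 0.19 with an interval of -0.18 to 0.56 (edgeR, adjusted p = 0.502). It was 0.54 without the second shNC library, which passed (adjusted p = 0.00158), and -0.11 without the first, which did not. Hira in LSK cells stood at 104 and 93.4 CPM in WT and at 90.6 and 85.5 CPM in KO, with no overlap but little distance between the nearest libraries. That log2 fold change was -0.17, and -0.088 without the first WT library.

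**Figure D2:**
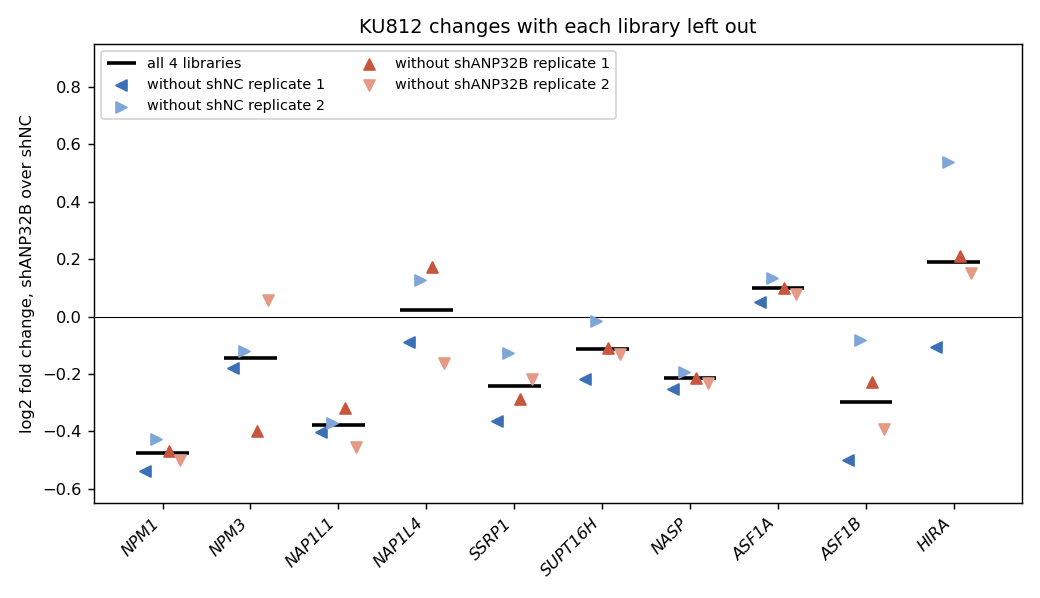
Log2 fold change of each chaperone in KU812 cells, shANP32B over shNC (vertical axis), with all 4 libraries (black bars) and with each library left out (triangles). NPM1, NAP1L1, SSRP1, SUPT16H, NASP and ASF1B stay below 0 throughout. HIRA runs from -0.11 to 0.54 and ASF1B from -0.50 to -0.082 depending on which shNC library is left out.

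Counted over the 10 chaperones, both shANP32B libraries were below both shNC libraries for NPM1, NAP1L1, SSRP1 and NASP and above both for ASF1A, while 58.5% of all genes tested in KU812 cells had groups that did not overlap, 28.9% lower and 29.5% higher. In LSK cells the groups did not overlap for Npm1, Asf1b and Hira, lower in KO, and for Npm3, higher in KO, against 33.2% of all genes tested, 15.6% lower and 17.7% higher. Both counts are of the size of the background. Without the second WT library the LSK log2 fold changes of Npm1, Npm3, Asf1b and Hira were larger in size, at -0.30, 0.45, -0.46 and -0.25. Without the first WT library they were smaller in size than with all libraries. The chaperones together took 0.257% and 0.28% of all counts in shNC and 0.227% and 0.228% in shANP32B, and from 0.277% to 0.312% in the LSK libraries. NPM1 alone made up 38.1% and 37.2% of the 10 genes' counts in shNC and 33% and 33.2% in shANP32B.

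The difference between the 2 experiments was tested in 1 edgeR model over all 8 libraries on 10771 symbols shared by both species. No chaperone passed, with 0 of 9 at an unadjusted p under 0.05, where 2.22% of the shared genes passed. NPM3 had the most negative difference, with a KU812 change 0.42 below the LSK change on the log2 scale (coded as KU812 minus LSK, -0.42, interval -0.95 to 0.11, adjusted p = 0.397). HIRA had the most positive, at 0.38 (interval -0.18 to 0.93, adjusted p = 0.475). The HIRA difference was 0.099 without the first shNC library and 0.73 without the second, and that of NPM3 was -0.26 without the first WT library, where that of NAP1L1 was -0.35. Without the second shANP32B library NPM3 stood at -0.21 and without the first at -0.66. For NPM1 and NAP1L1, which passed only in KU812 cells, the differences were -0.22 (interval -0.62 to 0.19) and -0.27 (interval -0.64 to 0.11), so they were not shown to differ between the experiments. SUPT16H enters only when its mouse symbol is matched by the synonym, an alternative added after seeing the data, and its difference was then -0.067 (adjusted p = 0.879).

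**Figure D3:**
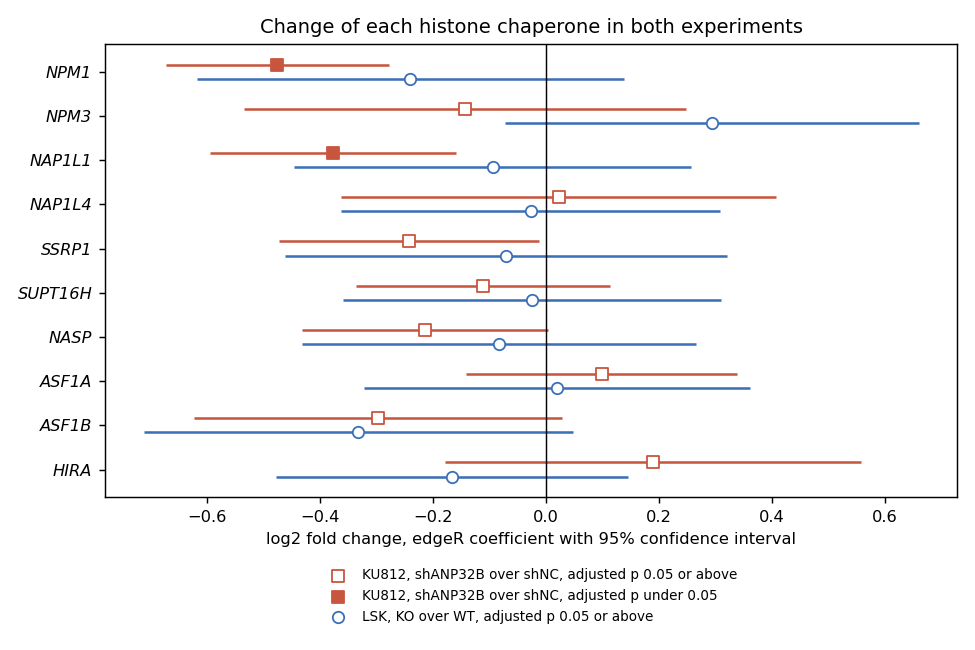
Log2 fold change of each chaperone (horizontal axis, edgeR coefficient without moderation, bars for the 95% confidence interval) in KU812 cells (squares) and LSK cells (circles); filled points have an adjusted p under 0.05. The intervals of NPM1, NAP1L1 and, without an adjusted p under 0.05, SSRP1 in KU812 cells lie below 0, and the 10 LSK intervals span 0.

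Levels between genes were compared only per kilobase of merged exons, in the mouse, for which an annotation was at hand (GENCODE on GRCm38). Npm1 was the most abundant chaperone in LSK cells, at 538 and 497 CPM per kilobase in WT and 420 and 456 in KO. Ssrp1 came next, at 142 and 114 in WT, followed by Nap1l1 at 91.7 and 80.6 and Npm3 at 68.7 and 84.7. The values of these last 2 overlap between libraries, so their order is not settled beyond the spread. Nap1l4 (61.9 and 54.2), Supt16 (31.7 and 36.6) and Nasp (21.6 and 25.5) were apart from one another. At the low end Hira (16.8 and 15.0) and Asf1b (17.4 and 14.4) could not be ordered, and Asf1a was lowest at 10.5 and 11.6. In KO the order was the same except that Npm3 stood above Nap1l1. With the longest transcript as the length Nasp stood above Supt16 in WT. The place of Asf1a also rested on the length. By the longest transcript Asf1a (17.4 and 19.2) and Asf1b (22.7 and 18.8) overlapped in WT. In KO, Asf1a (19.1 and 18.0) then stood above Asf1b (16.1 and 16.9).

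**Figure D4:**
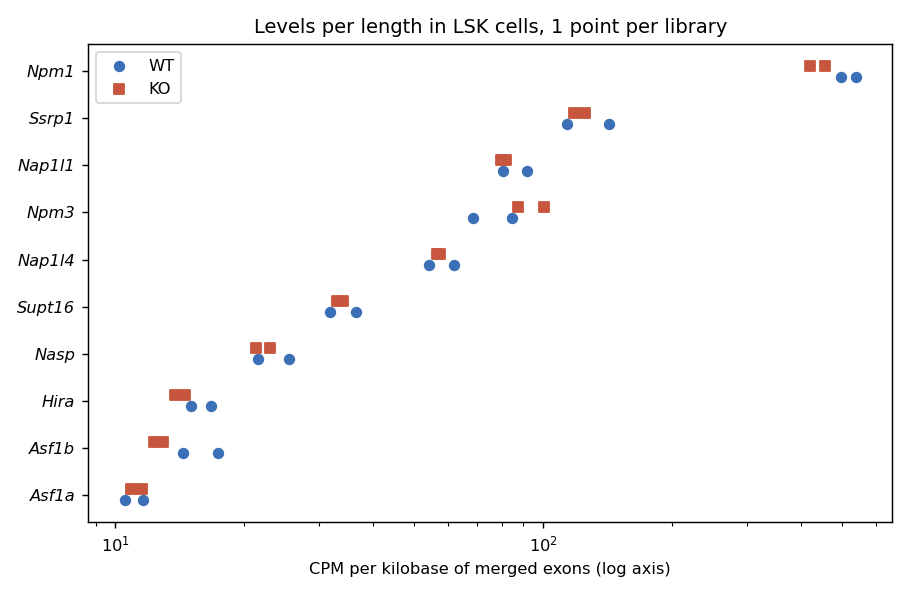
Levels of the 10 chaperones in LSK cells (horizontal axis, CPM per kilobase of merged exons, log axis), 1 point per library, WT circles and KO squares, ordered by the WT mean. Npm1 lies between 420 and 538, and Asf1a between 10.5 and 11.6.

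All 10 mouse genes are protein-coding and lie on different parts of the genome (GRCm38). Npm1 lies on the minus strand of chromosome 11 from 33152287 to 33163206, Nap1l1 on the plus strand of chromosome 10 from 111473223 to 111498150, and Nasp on the minus strand of chromosome 4 from 116601052 to 116627941. Exons of Asf1a share 1748 bases with Mcm9 and those of Supt16 1057 bases with Rpgrip1, each on the opposite strand, and exons of Hira share 2778 bases with the predicted gene Gm28539 on the same strand. No source used here gives the strand setting of the counting, so reads in the stretches on opposite strands cannot be told apart. The strand could not separate the reads that Hira shares with Gm28539, and how those were counted is not given either.

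Promoter windows from RefSeq (GRCm38.p6) were matched for 8 of the 10 mouse genes, with 9 windows in all, and the 250 bases before each annotated start were searched on both strands. These windows had a median GC content of 63.6% and a median of 24 CG pairs, against 52.4% and 6 over all 32851 windows. The CCAAT box (letters CCAAT), a common element of promoters of dividing cells, was found before Nap1l1, Asf1a, Asf1b and Nasp, in 4 of 9 windows against 33.8% of all. Asf1b held 4 copies, and 0.84% of all windows held at least 4. The GC box (GGGCGG) was found in 6 of 9 windows against 32.7% of all, the E-box (CACGTG) in 1 against 6.02%, the ETS motif (CCGGAAG) in 2 against 6.91%, and the E2F motif (TTTNGCGC) in 0 against 1.13%. None of these motifs contains another. The GC box is made of G and C only, and no share over windows of like GC content was computed. A match is a stretch of letters, and no binding was measured. The windows of Asf1a, Asf1b, Supt16, Npm3 and Nap1l1 and a window of Ssrp1 reach past the GENCODE gene start. Part of their letters therefore lies inside the gene.

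The stretches before Nap1l1, whose human counterpart fell in KU812 cells, and Nasp, whose window holds the box in both orientations, are shown 5′ to 3′ on the gene's own strand and end before the GENCODE gene start. Capitals mark the CCAAT box, which reads ATTGG where it lies on the other strand. The Nap1l1 stretch is chr10:111472977-111473222 on the plus strand and the Nasp stretch chr4:116627952-116628201 on the minus strand, in GRCm38.p6.
Nap1l1: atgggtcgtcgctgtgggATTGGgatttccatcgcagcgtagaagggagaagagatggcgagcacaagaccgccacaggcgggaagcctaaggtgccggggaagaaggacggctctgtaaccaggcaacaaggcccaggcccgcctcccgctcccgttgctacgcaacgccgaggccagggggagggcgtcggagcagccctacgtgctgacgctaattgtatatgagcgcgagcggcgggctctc
Nasp: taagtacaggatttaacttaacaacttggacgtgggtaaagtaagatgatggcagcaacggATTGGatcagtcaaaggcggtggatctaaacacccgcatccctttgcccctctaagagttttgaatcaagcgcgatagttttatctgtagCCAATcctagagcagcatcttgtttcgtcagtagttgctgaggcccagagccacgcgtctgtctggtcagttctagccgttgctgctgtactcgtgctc

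Among 25 other histone chaperones and partners tested in KU812 cells 8 fell and 1 rose, where 9.06% of all genes tested passed as lower and 7.53% as higher, and the median log2 fold change was -0.27. MMS22L, which works with TONSL on newly replicated chromatin, fell from 86.8 and 72.3 CPM in shNC to 46.1 and 50.1 CPM in shANP32B (log2 fold change -0.73, edgeR adjusted p = 0.00256). MCM2, a subunit of the replicative helicase that also binds H3-H4, fell from 174 and 204 CPM to 130 and 119 CPM (-0.61, adjusted p = 0.00369). UBN2, a partner of HIRA, fell by 0.72 on the log2 scale and TSPYL1, a relative of the NAP1 family, by 0.66. These 4 had no overlap between groups and kept their calls with each library left out.

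The remaining falls were smaller and less firm. CHAF1A, the large subunit of the replication-coupled chaperone CAF-1, fell by 0.42 on the log2 scale, its subunit RBBP4 by 0.32, HJURP, the chaperone of the centromeric histone CENP-A, by 0.39, and CDAN1, which binds ASF1, by 0.47 (edgeR, adjusted p from 0.0192 to 0.0386). CHAF1A, RBBP4, HJURP and CDAN1 lost their calls without either shANP32B library. CHAF1B, another subunit of CAF-1, stood at -0.20 and did not pass. NAP1L3 was the gene that rose, from 0.787 and 1.67 CPM to 3.01 and 4.40 CPM, a low level. Its call was lost without the second shANP32B library, at 1.28 (adjusted p = 0.184).

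Partners of the same complex did not all pass in KU812 cells. Of the HIRA complex UBN2 fell. UBN1 stood at -0.28 (interval -0.53 to -0.023) and CABIN1 at -0.29 (interval -0.56 to -0.029), in the same direction but without passing. HIRA stood at 0.19. The ASF1 partner CDAN1 fell, while IPO4, an importin that carries H3-H4 into the nucleus with ASF1, stood at 0.24. Differences between partners were not tested. In LSK cells 0 of 24 other chaperones passed with edgeR, DESeq2 or limma-voom, and 0 had an unadjusted p under 0.05 in edgeR. The 4 with the smallest p were Spty2d1 (log2 fold change -0.28), Nap1l3 (0.34), Ubn2 (-0.20) and Ubn1 (-0.18), and their median over the 24 genes was -0.036.

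Genes of the cell cycle also moved in KU812 cells. The shares of all genes to set these lists against are again 9.06% lower and 7.53% higher. Of 18 DNA replication genes 11 fell and 0 rose, with a median log2 fold change of -0.48, and their summed level was 2875 and 3156 CPM in shNC and 2183 and 2248 CPM in shANP32B. CDT1 and MCM6, which load and form the replicative helicase, fell by 0.79 and 0.70 on the log2 scale. Of 12 G2/M genes 9 fell and 0 rose (median -0.53, summed 2375 and 2378 CPM against 1642 and 1804 CPM). Of 17 nucleolar genes, a compartment shared with NPM1, 1 fell and 0 rose (median -0.082, summed 1958 to 2397 CPM in shNC and 2015 to 2037 CPM in shANP32B). That gene was GNL3, which encodes nucleostemin, at -0.69 (edgeR, adjusted p = 0.00222). The part of these lists in the falls of NPM1 and NAP1L1 was not tested.

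**Figure D5:**
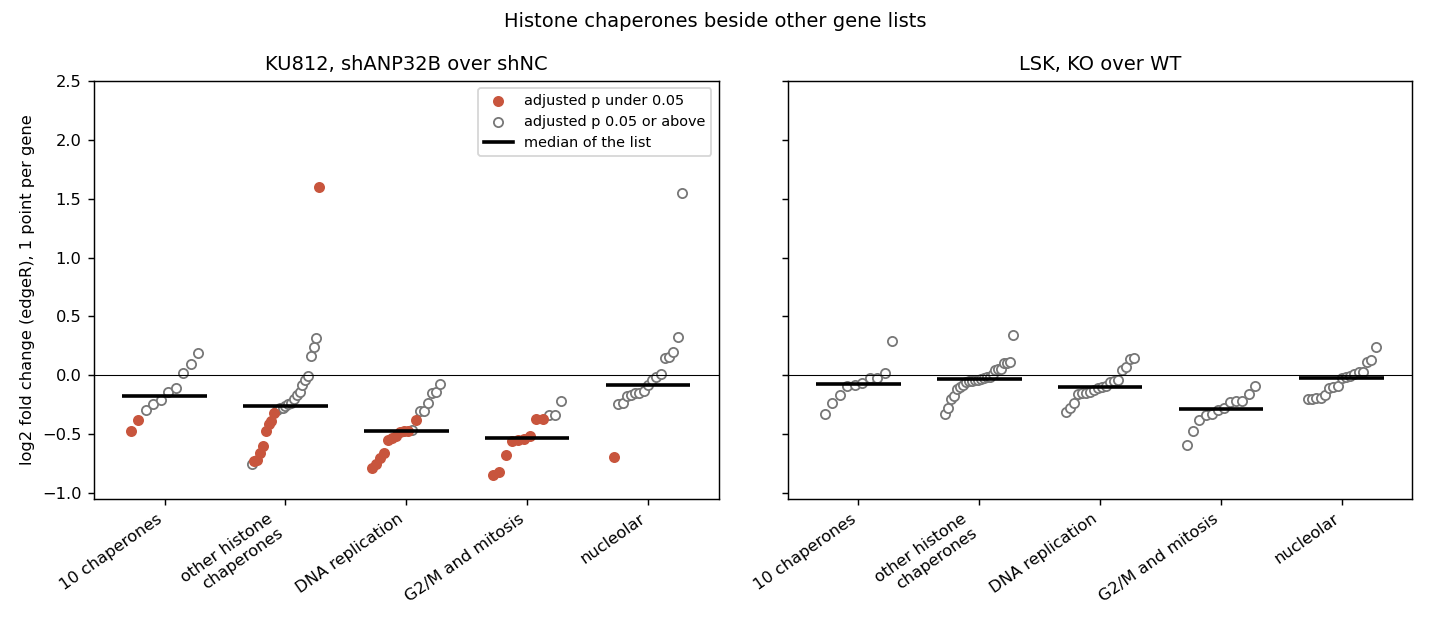
Log2 fold changes (vertical axis, 1 point per gene, filled where the adjusted p was under 0.05, black bars for medians) of the 10 chaperones, the other histone chaperones, and lists of DNA replication, G2/M and nucleolar genes, in KU812 cells (left) and LSK cells (right). In KU812 cells the median of the 10 chaperones, -0.18, lies above those of the replication genes, -0.48, and the G2/M genes, -0.53.

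In LSK cells 0 of these cell cycle and nucleolar genes passed (edgeR). An unadjusted p under 0.05 was reached by 0 of the 18 replication genes, 4 of the 12 G2/M genes and 0 of the 17 nucleolar genes, against 4.50% of all genes. The G2/M median was -0.29, with 12 of 12 genes below 0 and a summed level of 2368 and 2024 CPM in WT and 1705 and 1807 CPM in KO. The replication median was -0.10. Without the first WT library, a setting chosen after seeing the data, the G2/M median was -0.13 with 11 of 12 genes below 0, and the replication median -0.023. Of the genes in lists of other cell types 0 passed either. LSK cells may themselves express some of these genes, so the lists do not mark other cells alone. Log2 fold changes were below 0 for 12 of 12 genes of a myeloid list, 8 of them at an unadjusted p under 0.05 in edgeR. That list summed to 8674 and 6841 CPM in WT and 4891 and 6214 CPM in KO. Most of it was Mpo (6037 and 4492 CPM against 3102 and 4129 CPM). Stromal and endothelial genes were below 0 for 7 of 7 tested, 3 of them at an unadjusted p under 0.05. Their sum, 224 and 184 CPM in WT and 165 and 149 CPM in KO, was mostly Pecam1 (134 and 105 CPM against 109 and 94.8 CPM). Of 9 T and NK cell genes 6 were below 0, 1 of them, Gzmb, at an unadjusted p under 0.05, with a median of -0.66. Their sum, 175 and 122 CPM in WT and 127 and 155 CPM in KO, was mostly Nkg7 and Lck, which stood at 0.024 and 0.060, while Cd3e, Cd3d, Cd3g, Cd4 and Cd8a stood between -0.98 and -0.64. Without the first WT library the myeloid median of -0.56 was -0.55, and the stromal and endothelial median of -0.61 was -0.17. In that setting the median of T and NK cell genes was 0.094, and that of the B and plasma cell genes went from -0.24 to 0.89. Erythroid genes summed to 44.3 to 74.9 CPM over the 4 libraries. Of 8 stem and progenitor genes, Kit and Ly6a among them, 0 passed and 2 were below 0. Their median was 0.10, and 0.14 without the first WT library. Hlf (log2 fold change 0.35) and Procr (0.40) were higher in KO at an unadjusted p under 0.05 in edgeR. Ly6a stood at -0.38 without reaching it. The part of these markers in the LSK values of the chaperones was not tested, and in bulk RNA fewer cells of a type and less RNA per cell cannot be told apart. In KU812 cells 5 of 8 erythroid genes fell (summed 732 and 847 CPM in shNC, 531 and 521 CPM in shANP32B) and 0 rose. Of all genes tested there 9.06% passed as lower and 7.53% as higher. Of 5 genes of the myeloid list tested there 2 rose from low levels. S100A8 rose by 2.54 and S100A9 by 2.31 on the log2 scale (edgeR, adjusted p = 0.00037 and 0.00321). That list summed to 9.01 and 8.10 CPM in shNC and 22.7 and 20.5 CPM in shANP32B, while 2 B cell genes summed to 7.75 to 8.80 CPM. The part of these markers in the KU812 values of the chaperones was not tested.

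The chaperones varied together to different degrees. Over the 8 libraries, with each gene's log2 CPM centred within its experiment, NPM1 and NAP1L1 had the closest profiles of any pair of the 10 (Pearson r = 0.931), followed by NPM1 and ASF1B (r = 0.81) and SSRP1 and ASF1B (r = 0.797). ASF1A ran opposite to NAP1L1 (r = -0.773) and SSRP1 (r = -0.712). The FACT subunits SSRP1 and SUPT16H had an r of 0.052. Among 8588 genes whose mean count reached 50 in LSK and in KU812 cells alike, those most like NPM1 were TFRC, the transferrin receptor gene (r = 0.992), ORC4 (0.987) and AP3S1 (0.984), and those most like NAP1L1 were SPTLC1 (0.993), F5 (0.992) and ARHGAP19 (0.983). These values describe 8 points in 4 groups, and genes of a library share its depth and scaling. Group differences were not removed, so the r of NPM1 and NAP1L1 includes the fall of both in KU812 cells. The nearest of so many genes must lie close.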

How the data were processed

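RNA-seq libraries of 4 groups, 2 each, were analysed from the authors' deposited tables of raw counts, 1 whole number per gene symbol and library. Illumina libraries were made from Trizol-extracted total RNA, per the labels' protocols. Tools named in the submitters' processing notes are HISAT2, TopHat, Cufflinks and DESeq, with builds GRCm38 and GRCh38. Which tool counted, and with which strand setting, is not given in the sources. No gene in a table has a summed count under 10.

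Each experiment was fitted by itself in edgeR 4.0.16 (R 4.3.3) by the quasi-likelihood test, after filterByExpr and TMM scaling, with p-values adjusted by Benjamini-Hochberg over all genes tested. Log2 fold changes are those edgeR reports. The SE is the unmoderated coefficient divided by the square root of F, and the 95% intervals are set around that coefficient. The interaction used symbols equal in upper case. Profiles used log2 CPM with a prior count of 2. The scripts were tested on simulated data.

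Alternatives were library totals, median-ratio factors, DESeq2 1.42.0, limma-voom (limma 3.58.1) with sample quality weights, no filter, a replicate block, each library left out, and the longest transcript as length. A lone library of a group is then assumed to vary like the others.

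The chaperones and lists were chosen with earlier results of these data known. Named are the 10 chaperones, ANP32B, the other chaperones past the threshold or, with fewer than 4, the 4 of smallest p, up to 4 genes of a context list, and the 3 nearest profiles of a chaperone, of which those of NPM1 and NAP1L1 are given. Other names were chosen after their values were seen. A gene at 0 could hide up to 3 counts, or 0.107 to 0.286 CPM by library, from counting error only.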

Additional observations from a re-analysis of the deposited data

How the results depend on the processing

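No alternative called any of the 10 chaperones or the other chaperones in LSK cells, where Anp32b itself did not pass at a log2 fold change of -1.76. NPM1 in KU812 cells kept its call under every alternative, and NAP1L1 under all but the loss of either shANP32B library. In KU812 cells 2 chaperones were called with library totals, median-ratio factors, DESeq2, limma-voom and no filter, and from 1 to 4 with a library left out; the other chaperones called ranged from 4 to 11. The cause was not tested. With library totals RBBP4 (-0.26) and HJURP (-0.34) lost their calls.

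The replicate block, in which libraries share only a number, left 0 chaperones called in LSK cells, 2 in KU812 cells and 0 in the interaction, and 11 other chaperones in KU812 cells. It called 15 genes in all in LSK cells and 4164 in KU812 cells, against 0 and 2741 without it. Deviations of same-numbered libraries from their group means had r = -0.069 in LSK cells and 0.12 in KU812 cells. DESeq2 called 15 LSK genes and limma-voom 2. With each library left out the genes called ran from 0 to 830 in LSK cells, from 1413 to 4047 in KU812 cells and from 38 to 719 in the interaction (239 with all). With library totals the KU812 calls split into 1182 lower and 1474 higher genes, against 1497 and 1244.

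Signs turned for genes near 0. With library totals Nap1l4 stood at 0.020 and Supt16 at 0.020 in LSK cells. With each library left out the LSK ranges were -0.12 to 0.070 for Nap1l4, -0.23 to 0.099 for Ssrp1, -0.056 to 0.090 for Asf1a, -0.13 to 0.078 for Supt16 and -0.20 to 0.037 for Nasp. Those in KU812 cells were -0.16 to 0.17 for NAP1L4, -0.11 to 0.54 for HIRA and -0.40 to 0.056 for NPM3, and those of the interaction -0.11 to 0.23 for NAP1L4, -0.24 to 0.012 for NASP and -0.13 to 0.27 for ASF1B. None of these values passed except HIRA at 0.54.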

Other observations

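Some genes related to the chaperones had very low counts in the human tables. DAXX, which deposits H3.3 with ATRX, was read at 1.93 and 1.79 CPM in shNC and 1.39 and 0.807 CPM in shANP32B, where its mouse counterpart Daxx stood at 53.6 to 80.1 CPM in LSK cells. FBL, the nucleolar methyltransferase fibrillarin, was read at 1.75 and 2.08 CPM in shNC and at 10.1 and 1.09 CPM in shANP32B, so that its log2 fold change of 1.55, which did not pass, came from 1 library; Fbl stood at 88.6 to 111 CPM in LSK cells. Both genes were named after their values were seen, and levels between species were not tested.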
